A study of Mus musculus with 4 samples.

Results

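The RNAs described here are 167 predicted small RNA genes of the mouse, named Gm22000 to Gm26500, that were recovered in anti-FLAG immunoprecipitates (IPs) from mouse embryonic stem cells. They were selected on their read values: a gene of the noncoding table entered if it had at least 20 reads summed over the mutant Dis3l2 IP and the mock IP. Of 800 genes in this range of names, 167 (20.9%) met the rule, among 4973 genes of the whole table, and 1797 genes with other names had as many IP reads. The rule uses the sum of the IPs, so every value from the IPs is a description of genes picked for having reads there. Most of these names are Ensembl predictions of short structured RNAs, many of them near-identical copies of a known RNA, and copies are not independent of each other.

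The study sought RNAs bound by mutant Dis3l2. The cells were C57BL/6 mouse embryonic stem cells, used at passages 25 to 30 and adapted to gelatin, with LIF and serum and no feeder cells. The groups are the FLAG-mutant Dis3l2 IP, the mock IP, the FLAG-mutant Dis3l2 input and the mock input, with 1 library each, so no difference below has a replicate check and no p-value is given. The mutation, the promoter of the construct and the share of cells that took it up are not given in the labels. The mock IP is the RNA that the anti-FLAG gel holds from cells without the tagged protein. Input RNA was RiboMinus selected, which removes ribosomal RNA, and IP RNA is described only as RIP RNA, so IP and preparation cannot be told apart in any ratio of IP to input. The 12 embryonic stem cell markers looked up in the mRNA table summed to 4303 reads in the mutant IP, 2906 in the mock IP, 153 in the mutant input and 185 in the mock input. In the inputs 11 of the 12 had reads: Esrrb had 0 reads in the mutant input and Dppa4 had 0 in the mock input. For other cell types 3 markers each were in the mRNA table, so their sums cover fewer genes than the 12. In the same order of libraries, the sums were 20, 26, 2 and 0 reads for endoderm and 16, 20, 17 and 34 for mesoderm. They were 63, 69, 16 and 16 for ectoderm and 99, 27, 16 and 10 for fibroblasts. Fibroblast marker reads were thus higher in the mutant IP than in the mock IP, and their part in the values below was not tested. Eomes, a mesoderm marker, had 17 and 34 reads in the mutant and mock inputs. The stem cell markers Pou5f1 and Nanog had 48 and 62, and 11 and 7.

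Dis3l2 is an exoribonuclease of the cytoplasm that works from the 3′ end and prefers RNAs that carry a tail of uridines. Small nuclear RNAs (snRNAs) such as U1 and U2 are the RNA cores of the spliceosome, in which U1 pairs with 5′ splice sites and U2 with branch points. Their genes occur in many copies, alongside many truncated or altered relatives. They are made in the nucleus, trimmed at their 3′ ends, and assembled with a ring of Sm proteins in the cytoplasm before they return. The 5S RNA of the large ribosomal subunit is likewise transcribed from repeated genes. Small nucleolar RNAs (snoRNAs) guide chemical modification of other RNAs.

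A RefSeq gene table of build GRCm38.p6 was used for names, classes, lengths and gene order, and not to place the deposited transcripts. It listed 57 of the 167 genes. It called 36 of them snRNAs: 20 of 164 to 166 bases, the lengths it gives for the U1 genes Rnu1a1, Rnu1b1, Rnu1b2 and Rnu1b6, 11 of 191 bases, near the 187 bases of the U2 gene Rnu2-10, and 5 of other lengths between 116 and 160 bases. The remaining listed genes were 7 rRNAs of 119 to 121 bases, 4 pseudogenes, 5 snoRNAs and 5 lncRNAs, and 110 were not listed. The lncRNA records are much longer than a small RNA, from 1698 to 19366 bases, and were matched by symbol alone. All 7 rRNA genes lie next to a named 5S gene (n-R5s) in that table, Gm22068 lies next to Rnu1a1, and Gm24950, Gm23971 and Rnu2-10 follow one another. Gm25313, of 116 bases, is next to Rnu5g, a U5 gene of the same length. Gm24136 is next to Terc, the telomerase RNA gene.

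The sequence tables held no mature sequence for these RNAs, and RefSeq start windows for only 3 of the 167. One of them, a window of 300 bases recorded for Gm26232 at chr3:96450389-96450688 (GRCm38.p6, plus strand, 250 bases before to 50 after a recorded start), is printed because it holds the letters marked below. Capitals mark ACTTACCTG at base 60, the letters with which U1 pairs with 5′ splice sites, and AATTTGTGG at base 183, the Sm-ring site of U1.
Gm26232: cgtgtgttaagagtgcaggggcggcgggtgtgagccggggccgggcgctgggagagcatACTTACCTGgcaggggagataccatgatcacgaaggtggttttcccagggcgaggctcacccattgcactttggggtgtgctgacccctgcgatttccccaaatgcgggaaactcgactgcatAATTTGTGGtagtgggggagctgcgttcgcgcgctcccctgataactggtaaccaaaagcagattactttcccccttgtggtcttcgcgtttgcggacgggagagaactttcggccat
Of 32851 RefSeq windows searched on both strands for exact letters, 87 (0.265%) held ACTTACCTG, 55 (0.167%) held AATTTGTGG, and this window was the only 1 (0.00304%) that held both. A match is a description of the letters in the window. Both marked stretches lie before the recorded start, and the other window recorded for Gm26232 held neither. Whether the deposited Gm26232 transcript lies on these letters was not tested, since the files give no coordinates for it. Its read counts did track those of Rnu1b6, a U1 gene: 12559, 1567, 62998 and 62439 reads for Gm26232 in the mutant IP, mock IP, mutant input and mock input, beside 12539, 1566, 62966 and 63176 for Rnu1b6.

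The 167 genes took up a small share of the IPs and a large share of the inputs. They held 9.84% (exact 95% interval 9.81 to 9.87) of 3183346 noncoding reads in the mutant IP and 2.61% (2.58 to 2.63) of 2157604 in the mock IP, against 47% of 2746737 in the mutant input and 46.8% of 2738512 in the mock input. These intervals, like all below, cover counting error only, because PCR copies are not independent molecules. How reads that match several genes were counted is not known, so summed shares may hold the same reads more than once, and the intervals do not cover that. In every library but the mock IP, most of this share was the snRNAs of U1 length, with 6.58% in the mutant IP, 1.16% in the mock IP, 38% in the mutant input and 37.7% in the mock input. The 110 unlisted genes held 1.99%, 1.21%, 6.17% and 6.25% in the same order. Reads are not divided by length, so they are compared between libraries and not as levels between RNAs of different length. The depth per gene was uneven. The median was 135 reads over both IPs, 104 genes had at least 100 and 36 had at least 1000. No gene was without reads in the mutant IP, 4 had 0 reads in the mock IP and 7 had 0 reads in both inputs.

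**Figure D1:**
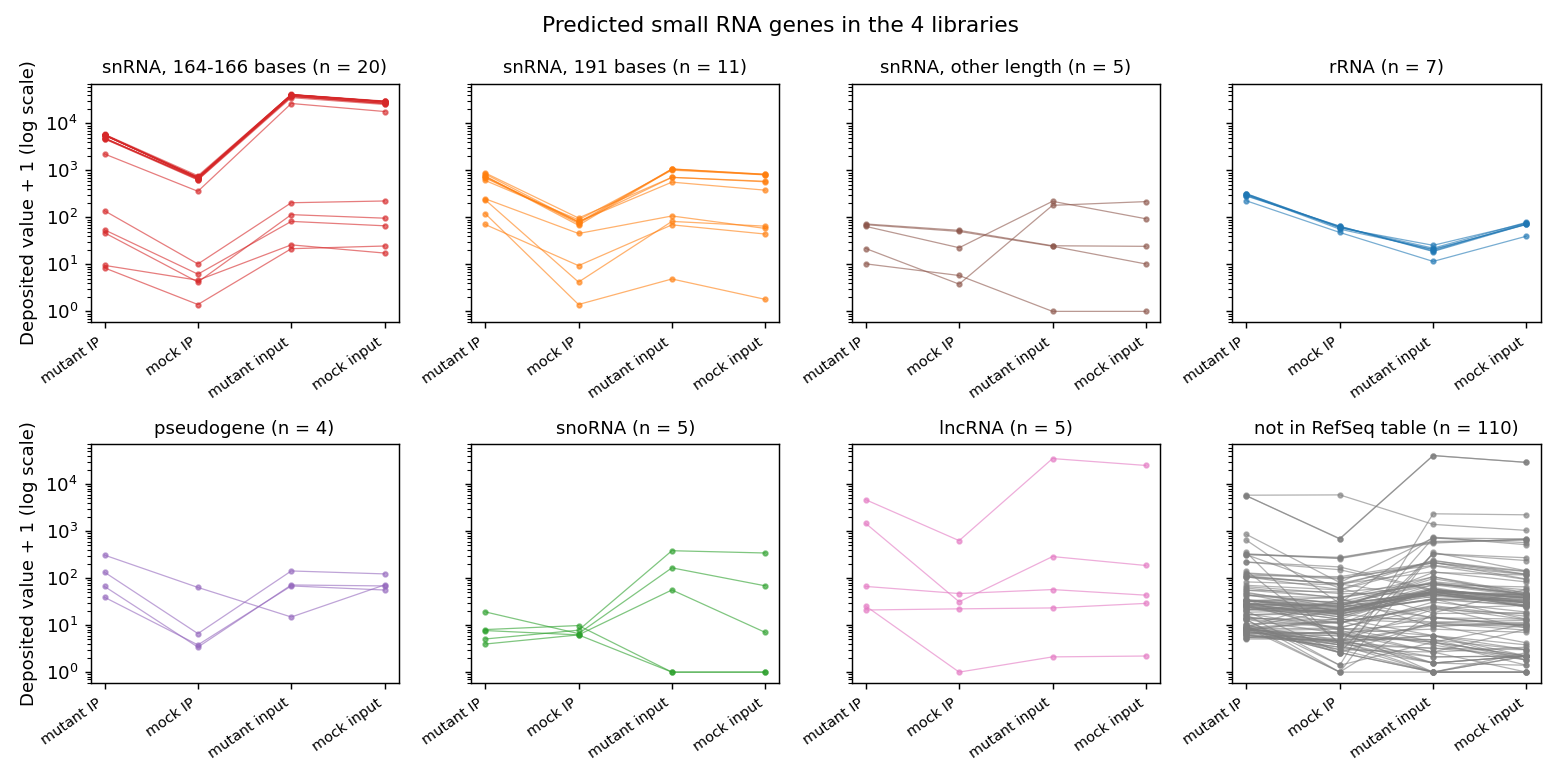
Each line is 1 predicted small RNA gene, grouped by RefSeq class, across the mutant IP, mock IP, mutant input and mock input; the vertical axis is the deposited value plus 1 on a log scale. The snRNAs of U1 length are lowest in the mock IP in every line, while the 7 rRNA genes are lowest in the mutant input.

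Between the IPs, the predicted genes split by class more than they moved as a whole. Ratios below are of deposited values, which are reads divided by 2.7 in the mutant IP, 1.8 in the mutant input and 2.5 in both mock libraries; log2 ratios carry a pseudocount of 1, and folds with 95% intervals are from reads without it. In the mutant IP 59 of the 167 (35.3%) were at least 4-fold higher than in the mock IP and 0 were at least 4-fold lower, counted on the log2 scale with the pseudocount; without it 1 gene, Gm22514, is lower by that much. Over all noncoding features with a value of at least 1, 13.5% were that much higher and 5.99% lower, and among the genes with other names and at least 20 IP reads, 9.74% were higher and 1.78% lower. The median log2 ratio of the 167 was 0.86, against 0.47 over all features. Scaling the libraries to a common median, or to equal noncoding totals, took the median over all features to 0.07 and that of the 167 to 0.44, left 51 of them at least 4-fold higher and 1 lower, and changed the split of all features to 393 higher and 328 lower from 475 and 210. Counting error alone left few of the higher genes in doubt: 49 of the 59 had an interval that lay wholly above 4-fold. Of the 59, 42 were among the 47 snRNA, rRNA and pseudogene records. Counting each set of genes with close counts once (4 values within 20% of another's) left 31 of 116. The shares over all features were not counted in that way.

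**Figure D2:**
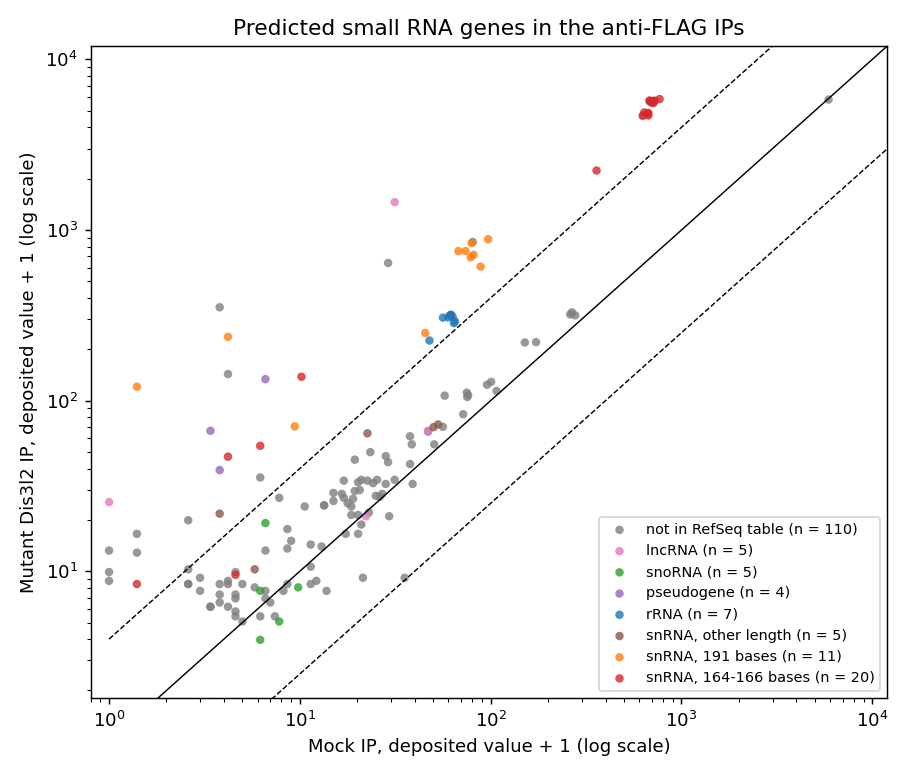
Deposited values plus 1 in the mutant IP (vertical) and the mock IP (horizontal), both on log scales, for 167 genes coloured by RefSeq class; the solid line marks equal values and the dashed lines 4-fold differences. The snRNAs of 164 to 166 and of 191 bases lie above the upper dashed line with 1 exception, while most unlisted genes lie along the solid line.

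The 20 snRNAs of U1 length were higher in the mutant IP, by a median log2 of 2.97 (range 1.05 to 3.76), and 19 of them by at least 4-fold. In the mutant IP 14 of them had 12661 to 15812 reads, against 1564 to 1918 in the mock IP. The same 14 had 63616 to 74222 reads in the mutant input and 63171 to 74667 in the mock input. Gm22513, the highest, had 15812 reads in the mutant IP, against 1918 in the mock IP, which is 7.63-fold higher (7.28 to 8.01), with 74222 reads in the mutant input and 74667 in the mock input. Gm22317 had 15517 and 1697 reads in the mutant and mock IPs, 8.47-fold higher (8.05 to 8.91), and Gm26110 had 12671 and 1674, 7.01-fold higher (6.66 to 7.38). These values sit on both sides of the named U1 gene Rnu1a1, with 15488 reads in the mutant IP, against 1791 in the mock IP, 8.01-fold higher (7.62 to 8.41). Gm25189, also of 164 bases, was less abundant, with 6026 reads in the mutant IP, against 895 in the mock IP, 6.23-fold higher (5.81 to 6.7).

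Beyond these abundant genes, 5 snRNAs of U1 length had far fewer reads. Gm24136 had 370 reads in the mutant IP, against 23 in the mock IP, 14.9-fold higher (9.78 to 23.8), with 367 in the mutant input and 556 in the mock input. Gm23330 had 144 and 13 reads in the mutant and mock IPs, 10.3-fold higher (5.81 to 19.7), and Gm23686 had 124 and 8, 14.4-fold higher (7.06 to 34). Against the mutant input, the mutant IP was at 0.672 (0.58 to 0.779) for Gm24136 and 0.658 (0.519 to 0.833) for Gm23330, above the 0.142 of Gm22513. Gm25682 had 20 reads in the mutant IP, against 1 in the mock IP, which gives a ratio of 18.5 with an interval from 2.96 to 768. Gm23511 was the exception of the class, with 23 reads in the mutant IP, against 9 in the mock IP, 2.37-fold higher (1.05 to 5.81), and 45 and 41 reads in the mutant and mock inputs.

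All 11 snRNAs of 191 bases were at least 4-fold higher in the mutant IP, with a median log2 of 3.19 (range 2.46 to 6.43), and all 11 were so under both other scalings. Gm24950 had 2382 reads in the mutant IP, against 240 in the mock IP, 9.19-fold higher (8.04 to 10.5), with 1281 and 1427 in the mutant and mock inputs. It and its neighbour Gm23971 (2260 and 196 IP reads) had counts close to those of Rnu2-10, with 2258 reads in the mutant IP, against 202 in the mock IP. Gm25939, Gm23444, Gm23472 and Gm24497 had counts close to each other, from 1646 to 2030 reads in the mutant IP and 167 to 219 in the mock IP, and with more input reads, from 1818 to 1934 in the mutant input and 1997 to 2066 in the mock input. Gm23444 was 11.2-fold higher in the mutant IP (9.6 to 13.3) and Gm24497 6.96-fold (6.04 to 8.05). Gm22973 had the smallest ratio of the class, with 670 reads in the mutant IP, against 111 in the mock IP, 5.59-fold higher (4.57 to 6.9).

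A pair of the 191-base snRNAs stood far above the others of their class. Gm25813 had 636 reads in the mutant IP, against 8 in the mock IP, 73.6-fold higher (37.1 to 171), with deposited values of 81.1 in the mutant input and 64 in the mock input. Gm25202 had 323 reads in the mutant IP, against 1 in the mock IP, which gives a ratio of 299 with an interval from 53.3 to 11800, and only 7 and 2 reads in the mutant and mock inputs. Neither had a named RNA within 0.5 log2 units in all 4 libraries. After each gene was centred on its own mean over the 4 libraries, Gm25813 was nearest to Rn7s2, at a largest log2 difference of 0.36. Gm25202 was then nearest to Snord118, at 0.78. Some named RNA is always nearest by this measure.

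Among the 5 snRNAs of other lengths only Gm22739, of 160 bases, was at least 4-fold higher in the mutant IP, with 56 reads there and 7 in the mock IP, 7.41-fold (3.37 to 19.3); with a pseudocount of 5 it fell short of 4-fold. The neighbours Gm24265 and Gm24407, both of 141 bases, had 193 and 186 reads in the mutant IP, against 130 and 123 in the mock IP, which is 1.37-fold (1.09 to 1.73) and 1.4-fold (1.11 to 1.77). Gm24525, of 151 bases, was 2.93-fold higher in the mutant IP (2.15 to 4.06), with 171 reads against 54. Gm25313 had 25 reads in the mutant IP, against 12 in the mock IP, and 0 in both inputs.

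**Figure D3:**
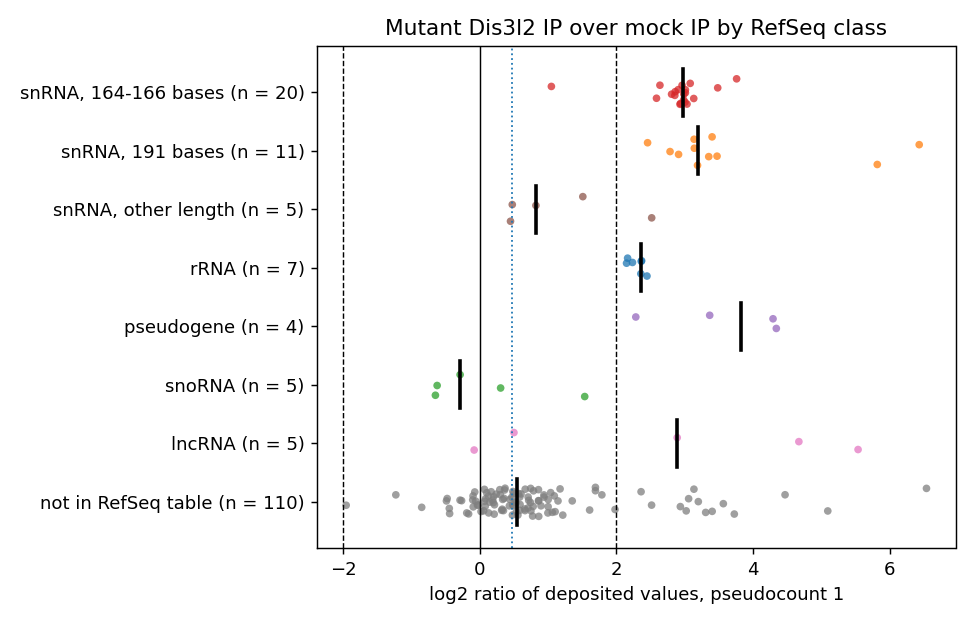
Log2 ratio of the mutant IP over the mock IP (pseudocount 1) for each of 167 genes, by RefSeq class; thick bars are class medians, dashed lines 4-fold, and the dotted line the median of all noncoding features at 0.47. Class medians are 2.97 and 3.19 for the snRNAs of 164 to 166 and of 191 bases, and 0.55 for unlisted genes.

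Of the 7 rRNA genes, 6 had values close to each other. Gm24312 had fewer reads, with 605, 117, 19 and 97 in the mutant IP, mock IP, mutant input and mock input. In the mutant IP the 7 genes had 605 to 858 reads, against 117 to 160 in the mock IP. The mutant input held 19 to 44 reads of each, against 97 to 194 in the mock input. Gm25018 had 858 reads in the mutant IP, against 153 in the mock IP, 5.19-fold higher (4.37 to 6.21), beside 887 and 163 for the named 5S gene n-R5s146. All 7 were just past 4-fold as deposited, with a median log2 of 2.36, but only 1 was under a common median or equal totals, where the median log2 was 1.91. The direction was the same in all 7 under each scaling. Gm23647, a pseudogene record next to n-R5s149, had values of the same kind, with 831 and 156 reads in the mutant and mock IPs and 25 and 177 in the mutant and mock inputs, as did the unlisted Gm24089 with 849, 151, 31 and 143.

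The other 3 pseudogene records had larger ratios between the IPs. Gm22220 had 358 reads in the mutant IP, against 14 in the mock IP, 23.7-fold higher (13.9 to 43.8), with 254 in the mutant input and 305 in the mock input. Gm25704 had 177 reads in the mutant IP, against 6 in the mock IP, 27.3-fold higher (12.3 to 75.4). Gm23240, with deposited values of 38.1 and 2.8 in the mutant and mock IPs, was 13.6-fold higher (6.38 to 34.7). All 3 remained past 4-fold under both scalings.

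Of the 5 genes matched to lncRNA records, 3 were at least 4-fold higher in the mutant IP. Gm24105 had 3928 reads in the mutant IP, against 76 in the mock IP, 47.9-fold higher (38.1 to 60.9), with 516 and 462 reads in the mutant and mock inputs. Gm24208 had 66 reads in the mutant IP, against 0 in the mock IP, at least 20.4-fold higher against a floor of 3 reads, and 2 and 3 reads in the inputs. The third was Gm26232, described above, at 7.42-fold (7.04 to 7.83). Gm25640 had 54 and 53 reads in the mutant and mock IPs, and Gm24576 had 177 and 115, with ratios of 0.943 (0.634 to 1.4) and 1.43 (1.12 to 1.82).

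None of the 5 snoRNA records reached 4-fold between the IPs, and their median log2 was -0.29. Gm22270 had the largest ratio, with 49 reads in the mutant IP, against 14 in the mock IP, 3.24-fold higher (1.76 to 6.36). Gm25117 had 11 and 17 reads in the mutant and mock IPs beside 688 and 854 in the mutant and mock inputs. The counts are low, and the intervals of all but Gm22270 hold 1.

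The 110 unlisted genes were mostly alike in both IPs. Their median log2 ratio was 0.55, close to the 0.47 of all features, and 79 of them were within 2-fold. How many of all features were within 2-fold was not counted. At least 4-fold higher in the mutant IP were 14 of them (12.7%), near the 13.5% of all features, and with a pseudocount of 5 the number was 7. Of these 14, Gm24305 and Gm23804 had counts close to those of U1-length genes, Gm23849 to Rnu2-10, Gm24089 to the 5S genes and Gm23865, on few reads, to the Y RNA gene Rny3. Under a common median, the median of the 110 was 0.11, with 65 above 0 and 45 below, so no shift of the unlisted genes as a group can be read from the deposited scale.

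Among the unlisted genes Gm26461 had the widest ratio between the IPs. There were 949 reads in the mutant IP, against 7 in the mock IP, 126-fold higher (60.7 to 313), with 1287 and 1706 reads in the mutant and mock inputs. Gm24514 had 384 reads in the mutant IP, against 8 in the mock IP, 44.4-fold higher (22.3 to 104), and 591 and 589 in the mutant and mock inputs. Gm24046 had 1729 and 70 IP reads, 22.9-fold higher in the mutant (18 to 29.5), with 1341 in the mutant input and 1282 in the mock input. After each gene was centred on its own mean over the 4 libraries, the named RNA nearest to all 3 was Rn7s6, though at largest log2 differences of 1.65 for Gm26461, 0.98 for Gm24514 and 0.63 for Gm24046, so none was close.

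The other unlisted genes past 4-fold had few reads. Gm26381 had 93 reads in the mutant IP, against 13 in the mock IP, 6.62-fold higher (3.69 to 12.9), and Gm23631 had 51 and 4, 11.8-fold higher (4.34 to 45). Gm22388 had 42 reads in the mutant IP, against 1 in the mock IP, which gives a ratio of 38.9 with an interval from 6.61 to 1570. Gm26397 had 32 reads in the mutant IP, against 1 in the mock IP, which gives a ratio of 29.6 (4.95 to 1210), but 4209 in the mutant input and 5560 in the mock input, so it was scarce in both IPs relative to the inputs. With 0 reads in the mock IP, Gm22567 (33 reads in the mutant IP) was at least 10.2-fold higher, Gm26447 (24 reads) at least 7.41-fold and Gm23865 (21 reads, and 0 in both inputs) at least 6.48-fold.

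On the deposited scale, several unlisted genes with many reads were recovered at similar values with and without the tagged protein. A common median or equal totals lowers ratios between the IPs, and took the median log2 of the 167 from 0.86 to 0.44. The intervals below do not cover that choice of scale. Gm25732 had the most IP reads of all 167 genes, 15709 in the mutant IP, against 14753 in the mock IP, which gives a ratio of 0.986 (0.964 to 1.01), with 2506 in the mutant input and 2590 in the mock input. Gm23935, Gm24270 and Gm24245 had close counts, with 851 to 886 reads in the mutant IP and 650 to 691 in the mock IP, with ratios from 1.14 to 1.23. A set of 15 unlisted genes led by Gm22625, each within 20% of at least 1 other, had 48 to 90 reads in the mutant IP, 31 to 58 in the mock IP, 72 to 112 in the mutant input and 64 to 106 in the mock input, and log2 ratios between the IPs from -0.16 to 0.94. After the same centring, 30 unlisted genes were nearest in pattern to Rnu3a, a U3 gene, which had 36 reads in the mutant IP, against 29 in the mock IP. Their largest log2 differences from it ran from 0.03 for Gm24081 to 0.76 for Gm22355. Every gene has a nearest named RNA by this measure, whatever the distance, so the count does not show that these genes resemble U3. The same count over all features was not made.

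On the deposited scale, few of the 167 were lower in the mutant IP. Only 3 had an interval wholly below 1 and 57 had one that held it, while the others lay above it or, in 4 cases, have bounds. The share of all features with such intervals was not counted. By log2 ratio 22 of the 167 were below 0, against 1184 of 3506 features and 494 of 1797 other genes with at least 20 IP reads. The read limit matters here: with at least 10 IP reads required, 15 genes were at least 4-fold lower and 72 higher. Under a common median 45 of the 110 unlisted genes were below 0, in place of 18 as deposited. Gm22514 had 22 reads in the mutant IP, against 86 in the mock IP, which gives a ratio of 0.237 (0.141 to 0.382), with 24 reads in each input. Gm25195 had 22 and 51 reads, a ratio of 0.399 (0.231 to 0.671), and Gm22464 had 18 and 32, a ratio of 0.521 (0.275 to 0.956). Gm26493, Gm25117, Gm23413, Gm24824, Gm22402, Gm22639 and Gm23365 were next lowest, with log2 ratios from -0.65 to -0.29 and intervals that held 1.

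Setting each IP against its own input separated the classes further. In the mutant, 30 of the 167 genes were at least 4-fold above their input and 26 at least 4-fold below, with a median log2 of -0.54. Over all features 25.7% were above and 10.3% below, with a median of 0.90, and among other genes with at least 20 IP reads 33.1% and 6.56%. In the mock, 12 of 165 were at least 4-fold above input and 48 below, with a median of -0.65, against 23.5% and 10.7% of all features with a median of 0.79, and 29.1% and 6.35% of the other genes. The difference in preparation between IP and input cannot be told apart from the IP in these values.

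The snRNAs of U1 length were below their input in both conditions, with median log2 ratios of -2.84 (mutant) and -5.34 (mock). For Gm22513 the ratio of IP to input was 0.142 (0.14 to 0.144) in the mutant and 0.0257 (0.0245 to 0.0269) in the mock. The 191-base snRNAs lay near their input in the mutant, at a median of 0.24, and below it in the mock, at -3.04. Gm24950 was 1.24-fold above input in the mutant (1.16 to 1.33) and at 0.168 of input in the mock (0.146 to 0.193). The rRNA genes were 7 of 7 at least 4-fold above input in the mutant, at a median of 3.88, and near it in the mock, at -0.25, where other scalings turned the sign (0.16 under a common median). As deposited, 23 genes were above input in the mutant and below it in the mock, 7 of them 191-base snRNAs, and 7 genes were the other way round. Of all features with a value of at least 1 in any library, 8.19% ran the first way and 7.06% the second, and of the other genes with at least 20 IP reads 10% and 7.9%. That difference did not hold under a common median, with 19 each way, and was 24 against 16 under equal totals.

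The ratio of IP to input in the mutant divided by the same ratio in the mock, called specific enrichment here, was at least 4-fold higher for 61 of the 167 and at least 4-fold lower for 4. Of all features 13.3% were that much higher and 8.69% lower, and of the other genes with at least 20 IP reads 11.2% and 4.73%. Of the 59 genes at least 4-fold higher between the IPs, 57 also passed here; Gm22973 (log2 of 1.58) and Gm26447, just below 4-fold, did not. Class medians were 2.5 for U1-length snRNAs, 2.87 for those of 191 bases, 4.13 for rRNA, 4.18 for pseudogenes and 0.06 for unlisted genes, and under a common median the first 4 were 2.45, 2.82, 4.06 and 4.20. Gm26461 was highest at 120-fold (57.6 to 300). Gm25202 was at 61.5-fold, on 1 read in the mock IP and an interval from 2.67 to 3640, and Gm25813 at 58.1-fold (27.8 to 139). At least 2-fold above input in the mutant and 2-fold below it in the mock were 3 of the 167, against 1.71% of all features and 1.28% of the other genes with at least 20 IP reads. The 3 were Gm24105, Gm24208 and Gm25813. In specific enrichment, Gm24105 was at 30.9-fold (23.7 to 40.5). Gm24514, which was below its input in both conditions, was at 31.9-fold (15.8 to 75). Gm25018 was at 19.1-fold (12.8 to 28.9), which rests on its lower reads in the mutant input as well as its higher reads in the mutant IP. Gm23726, Gm22234, Gm25690 and Gm25472 passed here and not between the IPs; the first 3 had 0 reads in the mutant input and 3 or 4 in the mock input. Gm26493 was lowest, at a log2 of -3.65, with 8 and 13 reads in the mutant and mock IPs and 99 and 15 in the mutant and mock inputs.

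**Figure D4:**
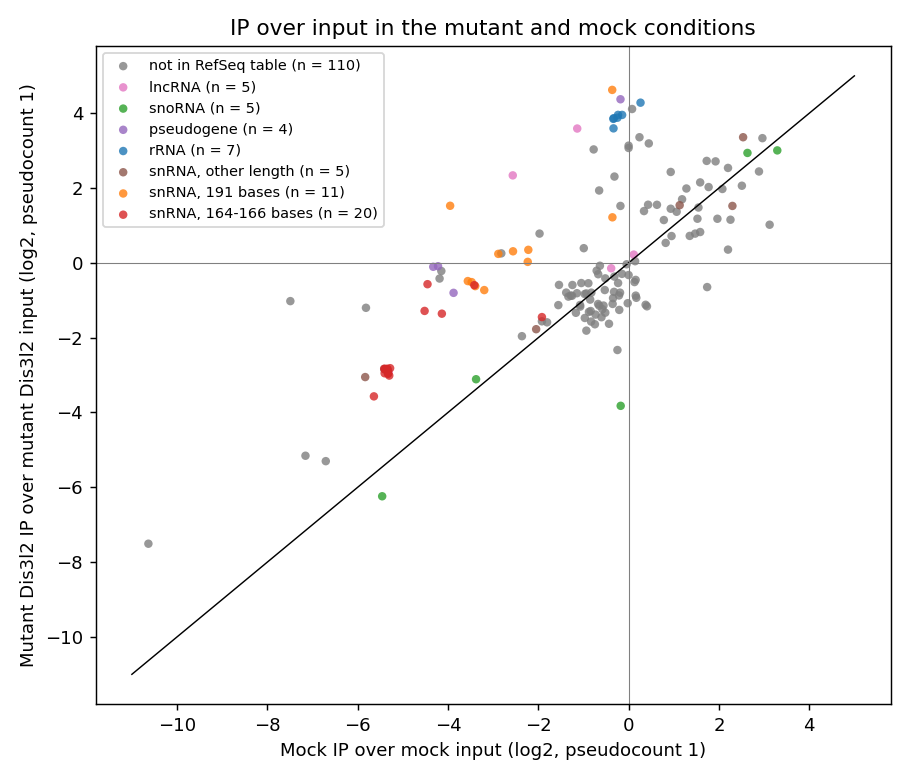
Log2 ratio of IP over input (pseudocount 1) in the mutant condition (vertical) and the mock condition (horizontal) for 167 genes coloured by RefSeq class; the diagonal marks equal ratios. The U1-length snRNAs are below 0 on both axes and above the diagonal, and unlisted genes scatter along it.

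At the low end, Gm26397 was at 0.00507 of its input in the mutant IP (0.00346 to 0.00717) and at 0.00018 in the mock IP (4.55e-06 to 0.001). Gm25117, a snoRNA record, was at 0.0107 (0.0053 to 0.0192) in the mutant, and Gm26083 at 0.0224 (0.0136 to 0.0349) in the mutant and 0.00592 (0.00161 to 0.0152) in the mock. In all, 24 genes were at least 4-fold below input in both conditions, 15 of them snRNAs of U1 length. Another 7 were at least 4-fold above it in both. Among all features with a value of at least 1 in any library, 6.02% were that far below in both and 8.52% that far above, and among the other genes with at least 20 IP reads 4.4% and 18.1%. Of the 7, Gm25732 alone was abundant, at 4.18-fold in the mutant (4.01 to 4.36) and 5.7-fold in the mock (5.46 to 5.94).

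In the inputs, which the choice of genes did not use, the median of the predicted genes was that of all features, and the 5S-like genes were lower. In the mutant input 24 of 159 genes were at least 2-fold higher and 14 at least 2-fold lower, against 29% and 13.6% of all features and 23.7% and 9.89% of other genes with at least 20 IP reads. Their median log2 was 0.48, the same as over all features (0.48), and under a common median 9 genes were higher and 14 lower, and all features split 437 and 408 in place of 735 and 344. The abundant snRNAs followed this common shift. Gm22513 had 74222 reads in the mutant input and 74667 in the mock input, which is 1.38-fold on the deposited scale (1.37 to 1.39), and the class medians of 0.49 for U1-length and 0.39 for 191-base snRNAs became 0.08 and -0.01 under a common median.

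All 7 rRNA genes were at least 2-fold lower in the mutant input, with a median log2 of -1.82, and were so under each scaling (-2.20 and -2.24). Gm25018 had 38 reads in the mutant input and 194 in the mock input, a ratio of 0.272 (0.187 to 0.387). Gm22109 was lower still, at 0.244 (0.163 to 0.354), with 33 and 188 reads, and Gm23647, the pseudogene record beside n-R5s149, was at 0.196 (0.124 to 0.299), with 25 and 177. The named genes n-R5s103 and n-R5s146 had 43 and 41 reads in the mutant input, against 192 and 203 in the mock input. Both inputs were selected against ribosomal RNA, and how completely in each library was not tested. Gm26493, a snoRNA record, was the highest in the mutant input, with 99 reads against 15 in the mock input, 9.17-fold higher (5.3 to 17). The next ratios rest on few reads: Gm24824 had 6 reads in the mutant input and 1 in the mock input, 8.33-fold (1.01 to 383), and Gm26377 had 9 and 2, 6.25-fold (1.29 to 59.4).

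**Figure D5:**
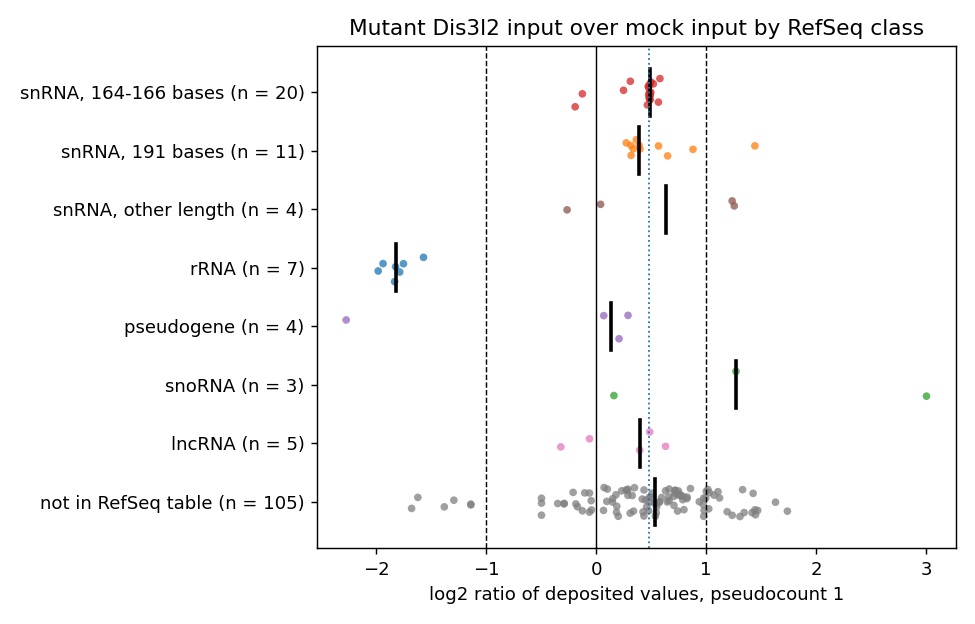
Log2 ratio of the mutant input over the mock input (pseudocount 1) for 159 genes with a deposited value of at least 1 in either input, by RefSeq class; thick bars are class medians, dashed lines 2-fold, and the dotted line the median of all noncoding features at 0.48. The 7 rRNA genes lie between -1.98 and -1.57, apart from every other class but 1 pseudogene record at -2.27 and a few unlisted genes.

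Some of these genes had counts close to each other. Genes whose 4 values were within 20% of those of another formed 11 sets that held 62 of the 167, and 26 genes had a named RNA within that limit. The sets are chained, so their ends can differ by more than the limit, and they rest on counts alone, with no sequence compared. The set of 17 led by Gm22513 joined 14 snRNAs of U1 length to Gm24305, Gm23804 and Gm26232 and to Rnu1a1, Rnu1b1, Rnu1b2 and Rnu1b6. A set of 8 led by Gm25018 joined 6 rRNA genes to Gm23647 and Gm24089 and to n-R5s103 and n-R5s146. With the largest log2 difference over the 4 libraries as the measure, 34 genes had a named RNA within 0.5. The nearest was Rnu1a1 for 11, n-R5s146 for 6, Rnu1b1, Rnu2-10 and Scarna2 for 3 each, and Rnu1b6 for 2. Rnu12, Rnu3a, Rnu1b2, Rny3, Snord13 and n-R5s103 were each nearest to 1 gene. None of these counts was made over all features. Some of the matches rest on few reads: Scarna2 had 17, 10, 3 and 3 in the mutant IP, mock IP, mutant input and mock input. Genes with so few reads can lie close to each other whatever they are.

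At the limit of the rule, Gm23189 and Gm25070 had 20 reads over the IPs, 14 in the mutant IP, against 6 in the mock IP for each. Gm22903 (11 and 10 reads in the mutant and mock IPs), Gm23802 (12 and 9), Gm23865 (21 and 0), Gm25682 (20 and 1) and Gm26493 (8 and 13) had 21. Just outside it, Gm22033 (9 and 10 reads in the mutant and mock IPs), Gm22548 (0 and 19), Gm23256 (3 and 16), Gm24616 (13 and 6) and Gm26463 (16 and 3) had 19. The rule also left out genes with many input reads and few IP reads. Of 633 genes of the name range that were not members, 229 had no IP reads and 92 had at least 20 input reads, 40 of them snoRNA records and 33 unlisted. Gm22988 had 9 reads in the mutant IP, against 4 in the mock IP, against 3867 in the mutant input and 3638 in the mock input. Gm24130, a snoRNA record, had 11 and 1 IP reads, against 2604 and 2598 input reads.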

How the data were processed

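Bowtie and the mouse build mm9 are named in the submitters' processing notes. How reads were counted, with or without strand, and what became of multiply aligned reads is not stated. The authors deposited 1 signal per transcript and library in a noncoding table (6311 transcripts) and an mRNA table (16470). In both, 100% of the deposited signal values were whole reads within 0.02 reads after multiplication by 2.7 (mutant IP), 1.8 (mutant input) or 2.5 (mock libraries); they are not divided by length. The transcript with the highest mean stood for a symbol. Log2 ratios used the deposited values plus 1, among features with a value of at least 1 in a library used. Intervals are exact 95% intervals (conditional binomial for folds, Clopper-Pearson for shares), and a library at 0 was set to a floor of 3 reads per library. With 1 library per group nothing was tested. The genes and lists were chosen with earlier results of these data known. Genes were named by rank: most IP reads, highest and lowest in each ratio, at the limit of 20 reads, and with input reads but none in 1 IP. Alternatives were other pseudocounts, scalings, read minimums and sets of close counts counted once; those without the snRNA, rRNA and pseudogene records, and the counts per class, were added after the data were seen. Python 3.11.15, pandas 2.3.3 and scipy 1.17.1 were used, and the ratio scripts were tested on simulated data.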

Additional observations from a re-analysis of the deposited data

Results flagged for a closer look

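The ratio of IP to input ran in opposite directions in the mutant and the mock for 3 of the 167 genes, at least 2-fold above input in the mutant IP and at least 2-fold below it in the mock IP. Of all features with a value of at least 1 in any library 1.71% did so, and of the other genes with at least 20 IP reads 1.28%. The share among the 167 was near that of all features, so the count is not a trait of these genes. On the log2 scale Gm24105 was at 2.34 in the mutant and -2.56 in the mock, and Gm25813 at 1.53 in the mutant and -3.95 in the mock. Gm24208 was at 3.59 in the mutant and -1.14 in the mock, which rests on 66 reads in the mutant IP, 0 in the mock IP, and 2 and 3 reads in the mutant and mock inputs. With 1 library per group the difference was not tested.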

How the results depend on the processing

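No paired analysis was possible because each group has 1 library and the labels carry no replicate numbers. No gene past its limit turned direction under pseudocounts of 0.5 and 5, a common median or equal noncoding totals, and the cause of the moves below was not tested unless fewer genes were counted. Between the IPs, 0 genes were at least 4-fold lower as deposited. This became 1 with a pseudocount of 0.5, under a common median or under equal totals. With at least 10 IP reads required, 15 were lower and 72 higher. The 59 higher became 31 of 116 with sets of close counts counted once. They became 12 without snRNA, rRNA and pseudogene records and the genes in their sets. The median log2 of the genes left was 0.50, beside 0.47 over all features, of which 13.5% were at least 4-fold higher. For specific enrichment, 61 higher became 32 and 15 under the last 2 settings, 4 lower became 1 with a pseudocount of 5 or at least 100 IP reads and 20 with at least 10, and the median log2 of 0.47 became 1.06 with at least 100 reads. Without those records and the genes in their sets that median was 0.03, beside 0.03 over all features, of which 13.3% were at least 4-fold higher. In the mutant IP over input, 30 higher became 16 with a pseudocount of 5, 15 with at least 100 reads and 19 without those records, and 26 lower became 10 with those sets counted once and 7 without those records. In the mock IP over input, 12 higher became 1 with a pseudocount of 5, 3 with at least 100 reads and 30 with at least 10, and 48 lower became 27 with those sets counted once and 11 without those records. Between the inputs, 24 higher became 10 with a pseudocount of 5 and 9 under a common median, equal totals or at least 100 reads, and 14 lower became 9 with a pseudocount of 5, 6 with those sets counted once and 5 without those records. By class, rRNA genes higher in the mutant IP were 7 as deposited and 1 under a common median or equal totals, other-length snRNAs were 1 and 0 with a pseudocount of 5, and unlisted genes 14 and 7. Genes with a close named RNA were 34 within a log2 difference of 0.5, 81 within 1 and 124 by shape alone. Such counts were not made over all features. Depth limits the 63 genes with 20 to 99 IP reads most.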
